A study of Homo sapiens with 10 samples.

Results

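Genes of the mitochondrial ribosome, of protein import into mitochondria and of the inner-membrane carriers were followed in ST486 cells, a human Burkitt's lymphoma line, after knockdown of the kinase STK38. The members were the probe sets annotated to a single gene whose symbol starts with MRPL, MRPS, TOMM, TIMM or SLC25A, together with TFAM, TUFM, PHB1, PHB2, LONP1 and CLPP. This rule found 61 probe sets for 46 genes among 8226 genes with a probe set of their own: 15 genes of the mitochondrial ribosome, 8 of import, 18 carriers and 5 of the other factors. No probe set was annotated to LONP1 alone, so it has no value here.

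The cells were transduced for 60 h with a lentiviral vector for a short hairpin RNA (shRNA), and total RNA was hybridised to Affymetrix HG-U95Av2 arrays. One group of 5 arrays carried STK38 shRNA (Sigma TRCN0000010215) and the control group of 5 carried non-target control shRNA (Sigma SHC002), so both groups are transduced ST486 cells that differ in the hairpin. A single hairpin against STK38 was used. The labels do not tie replicates to separate cultures, so p-values measure only how far these arrays scatter, and that scatter may be technical.

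Mitochondria keep a small genome of their own, and the few proteins it encodes are made on a dedicated ribosome whose protein subunits are all encoded in the nucleus. Those subunits and most other mitochondrial proteins are made in the cytosol and pass through the TOM complex of the outer membrane and the TIM complexes of the inner membrane. The SLC25 family then moves metabolites such as phosphate, ADP, ATP, citrate and amino acids across the inner membrane. MYC, the oncogene translocated in Burkitt's lymphoma and named in the title of the series, is known as a driver of mitochondrial biogenesis.

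STK38 itself was 4.56-fold lower with its shRNA (log2 difference -2.19, SE 0.14, limma adjusted p = 5.65e-08), and MYC mRNA was 2.61-fold lower (-1.38, SE 0.15, limma adjusted p = 9.56e-06). Of 6 B cell markers with a probe set, 5 were above the array background on every array and PAX5 on none; MME and CD38 fell by 1.60 and 1.49 and CD79A rose by 0.49 (limma adjusted p = 6.02e-08, 6.43e-08 and 0.000689). None of the 4 T cell, 4 monocyte and 3 fibroblast markers and only KRT8 of the 4 epithelial markers were above background on every array. Array medians ran from 2.12 to 2.25 on the log2 scale, and array backgrounds, taken from control probe sets, from 2.36 to 2.66. STK38 shRNA replicate 4 stood apart: its mean correlation with its own group was 0.978, against 0.991 for each of the other 4, and its 75th percentile was 3.53 where the other 9 arrays lay between 3.91 and 4.01. It was the lowest of its group at 23 of the 43 tested member genes (53.5%) and at 49.0% of all genes tested. Calls that changed without this array are given with and without it.

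The members changed in both directions and by small amounts. Of the 46 genes, 43 were bright enough to be tested, and 18 of these passed the test at their brightest probe set (limma adjusted p under 0.05), 7 higher and 11 lower with the STK38 shRNA. That is 41.9% of the members tested, beside 31.0% of all 5403 genes tested. In the array as a whole 15.2% of genes were called higher and 15.8% lower, against 16.3% and 25.6% of the members. The differences from these shares were not tested, and brightness was not matched, here or for the groups of members below. The filter (1.93) lay under every array background (2.36 to 2.66), so the genes tested include dim ones. At 14 of the 43 members the groups lay fully apart (32.6%), beside 23.0% of all genes. The median log2 fold change was -0.076 over the members and 0.019 over all genes, and the members ran from -1.01 to 0.67. Without STK38 shRNA replicate 4, 10 members were called higher and 11 lower, where 21.9% of all genes were called higher and 17.0% lower. Only 1 member, MRPL58, changed 2-fold. In RNA of whole cultures, fewer cells with a transcript and less of it per cell cannot be told apart.

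**Figure D1:**
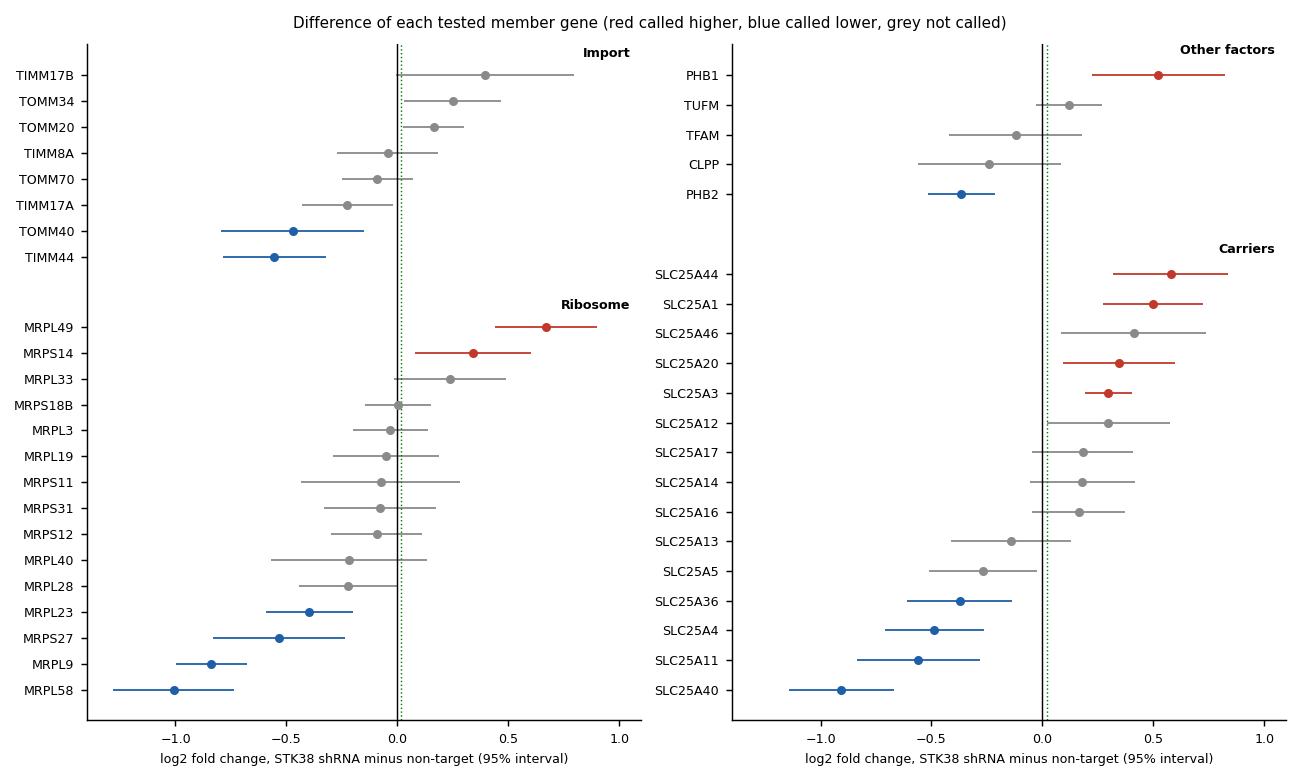
Log2 fold change (STK38 shRNA minus non-target, x axis) of the 43 tested member genes, 1 row each, with its 95% interval from limma; red genes were called higher, blue lower, and grey not called, and the dotted green line marks the median of all genes (0.019). Calls lie on both sides of 0 among ribosome genes, carriers and other factors, from MRPL58 at -1.01 to MRPL49 at 0.67.

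In the mitochondrial ribosome, 4 of 15 genes fell and 2 rose, and the median was -0.078. That is 40% called, beside 31.0% of all genes tested, and the difference was not tested. Each fall but one belonged to the large subunit, in which MRPL58, MRPL9 and MRPL23 fell and MRPL49 rose out of 9 genes. In the small subunit MRPS27 fell and MRPS14 rose out of 6. The called subunits thus did not share a direction in these arrays.

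MRPL58, a peptidyl-tRNA hydrolase built into the large subunit that frees stalled ribosomes, had the largest fall of all members. Its log2 levels were 5.83, 6.17, 5.99, 6.03 and 6.11 on the control arrays (replicates 1 to 5) and 4.86, 5.34, 4.78, 4.89 and 5.21 on the STK38 shRNA arrays. Every STK38 shRNA array lay below every control array, with means of 6.02 ± 0.13 and 5.02 ± 0.25 (SD, n = 5 each). The fall was 2.01-fold (log2 difference -1.01, SE 0.13, limma adjusted p = 2.99e-05).

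MRPL9, a structural protein of the large subunit, had the smallest adjusted p of all members. It stood at 8.94, 8.93, 8.92, 8.94 and 9.13 on the controls and at 8.08, 8.11, 8.35, 8.04 and 8.08 with the STK38 shRNA. The groups lay well apart, 8.97 ± 0.087 against 8.13 ± 0.13 (SD, n = 5 each), a 1.79-fold fall (log2 difference -0.84, SE 0.074, limma adjusted p = 1.05e-06). The name of its probe set ends in _s_at, Affymetrix's mark for probes shared by related transcripts.

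MRPL23, also of the large subunit, was at 8.52, 8.22, 8.24, 8.27 and 8.64 in the controls and at 8.05, 8.06, 8.03, 7.83 and 7.93 after STK38 knockdown. The groups came close but did not overlap, and the fall was 1.32-fold (log2 difference -0.40, SE 0.092, limma adjusted p = 0.00425). MRPS27, an RNA-binding protein of the small subunit, was at 4.64, 4.53, 4.38, 4.45 and 4.48 in the controls and at 3.64, 4.17, 3.82, 3.86 and 4.33 with the STK38 shRNA. Its STK38 shRNA arrays were scattered, with the highest just under the lowest control, and the fall was 1.45-fold (log2 difference -0.53, SE 0.14, limma adjusted p = 0.00880).

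MRPL49 went the other way and had the largest rise of all members. Its controls were 5.74, 6.00, 6.15, 6.20 and 5.86, and its STK38 shRNA arrays 6.60, 6.81, 6.51, 6.67 and 6.70. All 5 STK38 shRNA arrays were higher than all 5 controls, a 1.59-fold rise (log2 difference 0.67, SE 0.11, limma adjusted p = 0.000251).

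The call of MRPS14, the other rise, was weak. It read 2.10, 2.26, 2.47, 2.14 and 2.04 on the controls and 2.33, 2.71, 2.72, 2.22 and 2.73 with the STK38 shRNA, which overlap. The signal exceeded background on 1 control array and 3 STK38 shRNA arrays, so its difference of 0.34 (SE 0.12, limma adjusted p = 0.0484) has an uncertain size. The call was lost without any one of STK38 shRNA replicates 2, 3 and 5 or of control replicates 1, 2, 4 and 5 (limma adjusted p 0.0707 to 0.117), and under 12 of 17 alternatives in all, centring and quantile normalization among them. Without STK38 shRNA replicate 4 the difference was 0.42 (limma adjusted p = 0.00458). A second MRPS14 probe set was too dim to test.

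The other 9 ribosome genes were not called. At their brightest probe sets, MRPL3, MRPL19, MRPS11, MRPS12, MRPS18B and MRPS31 had log2 fold changes between -0.093 and 0.0027. Without STK38 shRNA replicate 4 these lay between -0.13 and 0.10. The dimmer probe sets of MRPS12 had -0.20 and -0.059 (limma adjusted p = 0.314 and 0.711), and -0.080 and -0.079 without that array. MRPS18B was at 8.27 ± 0.11 in the controls and 8.27 ± 0.030 with the STK38 shRNA (SD, n = 5 each), and the 95% interval of its difference was -0.15 to 0.15. MRPL40 and MRPS11 had each a low reading on STK38 shRNA replicate 4, and without it their differences were -0.055 and 0.10 (limma adjusted p = 0.754 and 0.493). MRPL33 had a difference of 0.24 at its brightest probe set (limma adjusted p = 0.153), and 0.15 without STK38 shRNA replicate 4 (limma adjusted p = 0.282). A dimmer probe set of MRPL33 had -0.046 with all arrays and -0.41 without STK38 shRNA replicate 4 (limma adjusted p = 0.939 and 0.0334), where that array read 4.40 and the others of its group 2.15 to 2.84. MRPL28 had -0.22 at its brightest probe set, and -0.14 without that array (limma adjusted p = 0.132 and 0.231), and was called lower at its other one, -0.57 (SE 0.19, limma adjusted p = 0.0298).

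**Figure D2:**
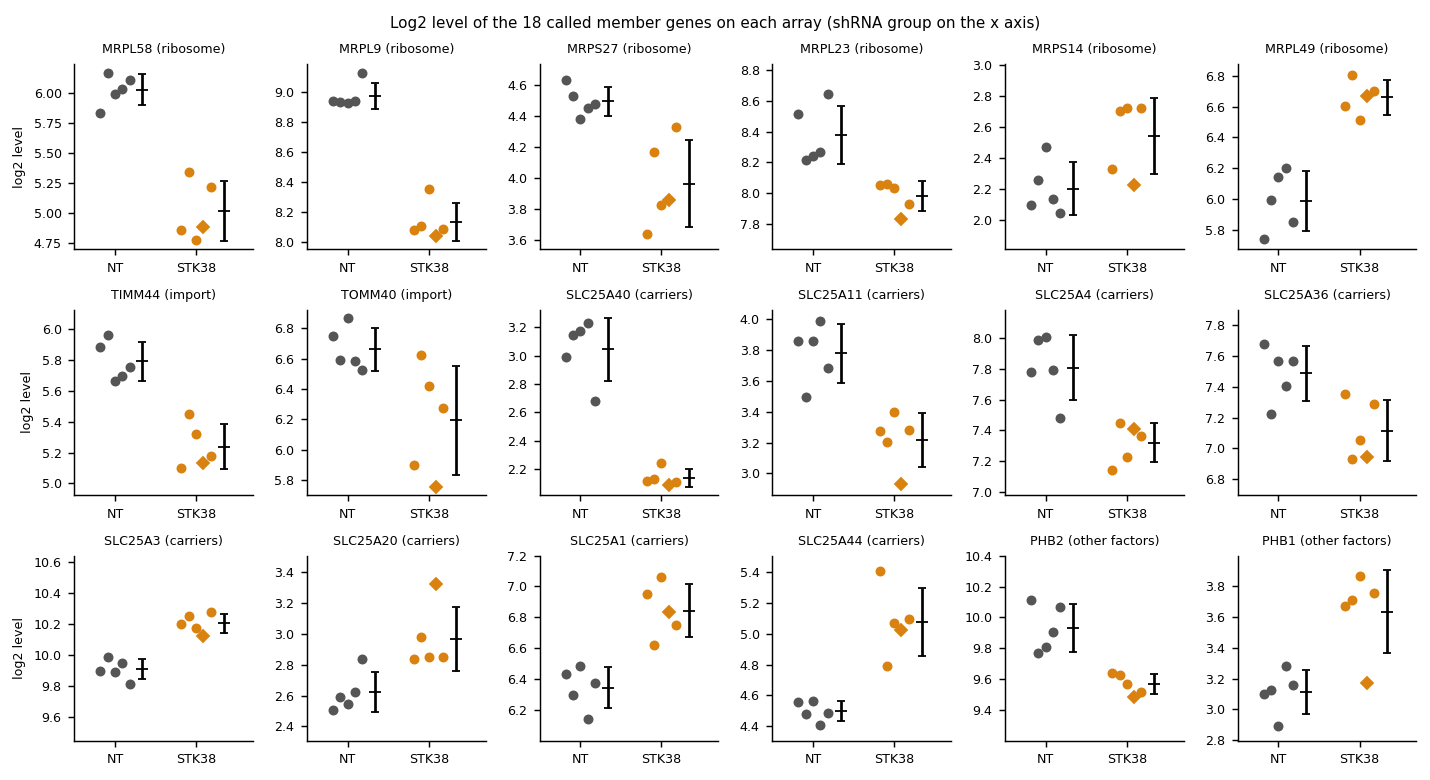
Log2 level (y axis, own range in each panel, not starting at 0) of the 18 called member genes on each of the 5 non-target (NT, grey) and 5 STK38 shRNA arrays (orange, replicate 4 as a diamond), with mean and SD beside the points. The groups do not overlap for MRPL58, MRPL9, MRPS27, MRPL23, MRPL49, TIMM44, SLC25A40, SLC25A11, SLC25A4, SLC25A3, SLC25A1, SLC25A44 and PHB2.

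In the import machinery, 2 of 8 genes fell, TIMM44 and TOMM40, and 0 rose at their brightest probe sets, with a median of -0.066. That is 25% called, under the 31.0% of all genes tested. One further gene, TOMM34, was higher at 2 dimmer probe sets. The count depended on single arrays: without STK38 shRNA replicate 4 it was 4, with TIMM17B and TOMM34 added as rises, and without STK38 shRNA replicate 1, control replicate 1 or control replicate 3 it was 1, with TOMM40 lost.

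TIMM44, the inner-membrane protein that tethers the heat shock protein motor to the import channel, was clearly lower. It read 5.89, 5.96, 5.67, 5.69 and 5.76 in the controls and 5.10, 5.45, 5.32, 5.13 and 5.18 with the STK38 shRNA. The groups did not overlap, with means of 5.79 ± 0.13 and 5.24 ± 0.15 (SD, n = 5 each) and a 1.47-fold fall (log2 difference -0.56, SE 0.11, limma adjusted p = 0.00122).

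TOMM40, the pore of the outer membrane through which nearly all imported proteins pass, was at 6.75, 6.59, 6.87, 6.58 and 6.53 in the controls and at 5.89, 6.62, 6.42, 5.75 and 6.27 with the STK38 shRNA. STK38 shRNA replicate 2 lay inside the control range, while replicates 1 and 4 were lowest. The fall was 1.39-fold (log2 difference -0.47, SE 0.15, limma adjusted p = 0.0271). It was -0.40, -0.45 and -0.42 without STK38 shRNA replicate 1, control replicate 1 and control replicate 3 (limma adjusted p = 0.0767, 0.0631 and 0.0739), and -0.36 without STK38 shRNA replicate 4 (limma adjusted p = 0.0336).

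TOMM20 and TOMM70, the receptors that recognise proteins to be imported, were not called. Their log2 fold changes were 0.16 (SE 0.065, limma adjusted p = 0.0690) and -0.089 (SE 0.075, limma adjusted p = 0.441). Without control replicate 2, TOMM20 was called, at 0.19 (limma adjusted p = 0.0491). TOMM34, a largely cytosolic co-chaperone of imported proteins, was singled out after its values were seen because its 3 probe sets differed in size. The brightest had 0.25 (SE 0.10, limma adjusted p = 0.0847), and the others 0.67 (SE 0.16, limma adjusted p = 0.00501) and 0.61 (SE 0.19, limma adjusted p = 0.0253). At the probe set with 0.67, the controls were 5.30, 5.06, 5.31, 5.20 and 4.95 and the STK38 shRNA arrays 5.86, 5.99, 6.29, 5.29 and 5.72, so that replicate 4 alone fell within the control range. Without that array the 3 probe sets had 0.31, 0.80 and 0.79 (limma adjusted p = 0.0175, 6.29e-05 and 0.000195).

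The channel subunits TIMM17A and TIMM17B differed little or unevenly. TIMM17A had -0.22, 0.14 and 0.037 at its 3 probe sets, none called (limma adjusted p = 0.0944, 0.333 and 0.853). TIMM17B was at 4.17, 4.56, 4.81, 3.60 and 4.44 with the STK38 shRNA, where the controls were 4.08, 3.91, 4.03, 3.76 and 3.84. Replicate 4 lay below every control and the other 4 above every control, and the difference was 0.39 with all arrays (SE 0.19, limma adjusted p = 0.138) and 0.57 without that one (limma adjusted p = 0.00200). TIMM8A, a chaperone of the intermembrane space, was dim, above background on 1 control and 2 STK38 shRNA arrays, with a difference of -0.043 (SE 0.11, limma adjusted p = 0.822), and 0.034 without STK38 shRNA replicate 4 (limma adjusted p = 0.805).

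**Figure D3:**
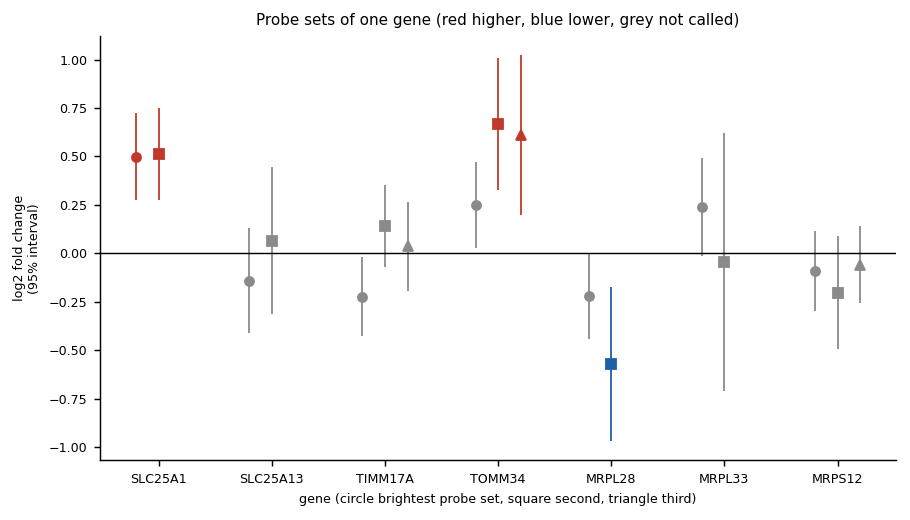
Log2 fold change with its 95% interval (y axis) at each tested probe set of the 7 member genes that had several (x axis), from the brightest (circle) to the dimmest. Both SLC25A1 probe sets lie near 0.50, whereas the TOMM34 ones run from 0.25 to 0.67 and those of TIMM17A from -0.22 to 0.14.

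Among the groups of members, the carriers held the most calls. Of 18 genes 15 were tested, and 4 rose and 4 fell, with a median of 0.18. That is 53.3% called, beside 31.0% of all genes tested, and the difference was not tested. SLC25A24, the ATP-Mg/phosphate carrier, SLC25A26, the S-adenosylmethionine carrier, and SLC25A42, a coenzyme A carrier, were below the filter and above background on no array. The rises were SLC25A3, SLC25A1, SLC25A44 and SLC25A20, and the falls SLC25A40, SLC25A11, SLC25A4 and SLC25A36.

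Of the carriers that supply ATP synthesis, SLC25A3 and SLC25A4 were called in opposite directions. SLC25A3, which brings phosphate into the matrix, was at 9.90, 9.99, 9.89, 9.95 and 9.81 in the controls and at 10.20, 10.25, 10.17, 10.12 and 10.28 with the STK38 shRNA. This was a small and even rise, 9.91 ± 0.066 to 10.21 ± 0.061 (SD, n = 5 each), or 1.23-fold (log2 difference 0.30, SE 0.050, limma adjusted p = 0.000340). SLC25A4, an ADP/ATP exchanger, was at 7.78, 7.98, 8.0, 7.79 and 7.48 and at 7.15, 7.45, 7.23, 7.41 and 7.37. It fell 1.40-fold without overlap (log2 difference -0.49, SE 0.10, limma adjusted p = 0.00238). Another SLC25A4 probe set was above background on no array and too dim to test.

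SLC25A5, the ADP/ATP exchanger of dividing cells, was at 7.66, 7.50, 7.45, 7.79 and 7.75 and at 7.57, 7.19, 7.04, 7.47 and 7.54. The groups overlapped, and the difference of -0.27 (SE 0.11, limma adjusted p = 0.0926; 95% interval -0.51 to -0.026) was not called. No probe set was annotated to SLC25A6, another exchanger, alone. The exchangers are close relatives, so a probe set of one may bind transcripts of another.

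SLC25A1, the citrate carrier that supplies carbon for lipid synthesis in the cytosol, rose. At its brightest probe set it was at 6.43, 6.29, 6.49, 6.14 and 6.37 in the controls and at 6.95, 6.62, 7.06, 6.83 and 6.75 with the STK38 shRNA. The groups did not overlap, and the rise was 1.41-fold (log2 difference 0.50, SE 0.11, limma adjusted p = 0.00215). A second probe set, also without overlap, gave 1.43-fold (0.51, SE 0.11, limma adjusted p = 0.00274), and another was too dim to test.

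SLC25A11, which exchanges oxoglutarate for malate in the malate-aspartate shuttle, fell. It was at 3.86, 3.50, 3.86, 3.99 and 3.68 and, with the STK38 shRNA, at 3.28, 3.21, 3.40, 2.93 and 3.28, a 1.47-fold fall without overlap (log2 difference -0.56, SE 0.13, limma adjusted p = 0.00442). The aspartate/glutamate carriers of the same shuttle were not called. SLC25A12 had 0.30 (SE 0.13, limma adjusted p = 0.106), which became 0.36 without STK38 shRNA replicate 4 (limma adjusted p = 0.0275), and SLC25A13 had -0.14 and 0.065 at its 2 probe sets (limma adjusted p = 0.473 and 0.842), the second at 0.23 without that array (limma adjusted p = 0.187).

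SLC25A40, linked to glutathione import into mitochondria, had the largest fall among the carriers. Its controls were at 2.99, 3.14, 3.17, 3.23 and 2.68, all above background, and its STK38 shRNA arrays at 2.11, 2.13, 2.24, 2.09 and 2.11, none above background. The STK38 shRNA arrays sat together at the floor, and the gene is therefore reported as at least 1.51-fold lower (limma adjusted p = 2.10e-05), with measured means of 3.04 ± 0.22 and 2.14 ± 0.060 (SD, n = 5 each).

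SLC25A44, a carrier of branched-chain amino acids, had the largest rise among the carriers. It was at 4.56, 4.48, 4.57, 4.41 and 4.49 in the controls and at 5.41, 4.79, 5.07, 5.03 and 5.09 with the STK38 shRNA. The rise was 1.49-fold without overlap (log2 difference 0.58, SE 0.12, limma adjusted p = 0.00206).

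SLC25A36, a carrier of pyrimidine nucleotides, was at 7.68, 7.22, 7.56, 7.41 and 7.57 and, with the STK38 shRNA, at 7.35, 6.93, 7.05, 6.95 and 7.29. The groups overlapped, and the 1.29-fold fall (log2 difference -0.37, SE 0.11, limma adjusted p = 0.0188) was not called without STK38 shRNA replicate 2 or control replicate 1 (limma adjusted p = 0.0534 and 0.0542). SLC25A20, which carries acylcarnitines for fatty acid oxidation, was at 2.51, 2.59, 2.55, 2.62 and 2.84 and at 2.83, 2.98, 2.85, 3.32 and 2.85. The groups overlapped slightly, and this dim gene, above background on all arrays, was 1.27-fold higher (log2 difference 0.35, SE 0.12, limma adjusted p = 0.0380). The call was lost without STK38 shRNA replicate 2 or any one of control replicates 1 to 4 (limma adjusted p 0.0698 to 0.0907). Quantile normalization also lost it (limma adjusted p = 0.0851), and it was lost under 7 of 17 alternatives in all. The difference was 0.26 without STK38 shRNA replicate 4 (limma adjusted p = 0.0388).

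The carriers not yet named had differences between 0.16 and 0.41, none called. SLC25A46, an outer-membrane member of the family that takes part in mitochondrial fission, had 0.41 (SE 0.15, limma adjusted p = 0.0551). It was called without STK38 shRNA replicate 1 or 3, at 0.52 and 0.48 (limma adjusted p = 0.0142 and 0.0348), and with array weights (limma adjusted p = 0.0472). Without STK38 shRNA replicate 4, the highest array of its group, SLC25A46 had 0.29 and was not called (limma adjusted p = 0.0801). SLC25A17, which works in peroxisomes, had 0.18 without overlap of the groups (SE 0.11, limma adjusted p = 0.242), SLC25A14 had 0.18 (SE 0.11, limma adjusted p = 0.267), and SLC25A16, above background on 1 of the 10 arrays, had 0.16 (SE 0.098, limma adjusted p = 0.249).

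Among the other factors, the probe sets of the prohibitins were called in opposite directions. PHB1 and PHB2 are partners that assemble into rings in the inner membrane and hold its proteases. PHB2 was at 10.12, 9.77, 9.81, 9.90 and 10.07 in the controls and at 9.64, 9.62, 9.57, 9.49 and 9.52 with the STK38 shRNA, a 1.29-fold fall without overlap (log2 difference -0.37, SE 0.070, limma adjusted p = 0.00107). PHB1 was at 3.10, 3.12, 2.89, 3.28 and 3.16 and at 3.67, 3.71, 3.87, 3.17 and 3.75. It rose 1.44-fold (log2 difference 0.52, SE 0.14, limma adjusted p = 0.0107). Replicate 4 was the only STK38 shRNA array in the control range, and without it the rise was 0.64 (limma adjusted p = 0.000145). PHB1 and PHB2 were each read by 1 probe set. That of PHB1 was dim, though above background on every array, with a control mean of 3.11 beside 9.93 for PHB2.

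TFAM, which packages mitochondrial DNA and starts its transcription, was at 5.11, 5.08, 5.21, 5.01 and 4.56 and, with the STK38 shRNA, at 4.75, 5.08, 4.85, 4.64 and 5.05. The groups overlapped, with a difference of -0.12 (SE 0.14, limma adjusted p = 0.597; 95% interval -0.42 to 0.18). Without STK38 shRNA replicate 4 it was -0.062 (limma adjusted p = 0.759). TUFM, the elongation factor of mitochondrial translation, was at 8.87, 8.63, 8.71, 8.70 and 8.68 and at 8.76, 8.91, 8.98, 8.82 and 8.72, and its difference of 0.12 (SE 0.070, limma adjusted p = 0.228; 95% interval -0.028 to 0.27) was not called. CLPP, a matrix protease, was at 6.90, 6.69, 6.79, 6.67 and 7.06 and at 6.64, 6.71, 6.95, 5.98 and 6.64. Replicate 4 was its low array, and the difference was -0.24 with it and -0.089 without it (limma adjusted p = 0.280 and 0.557).

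**Figure D4:**
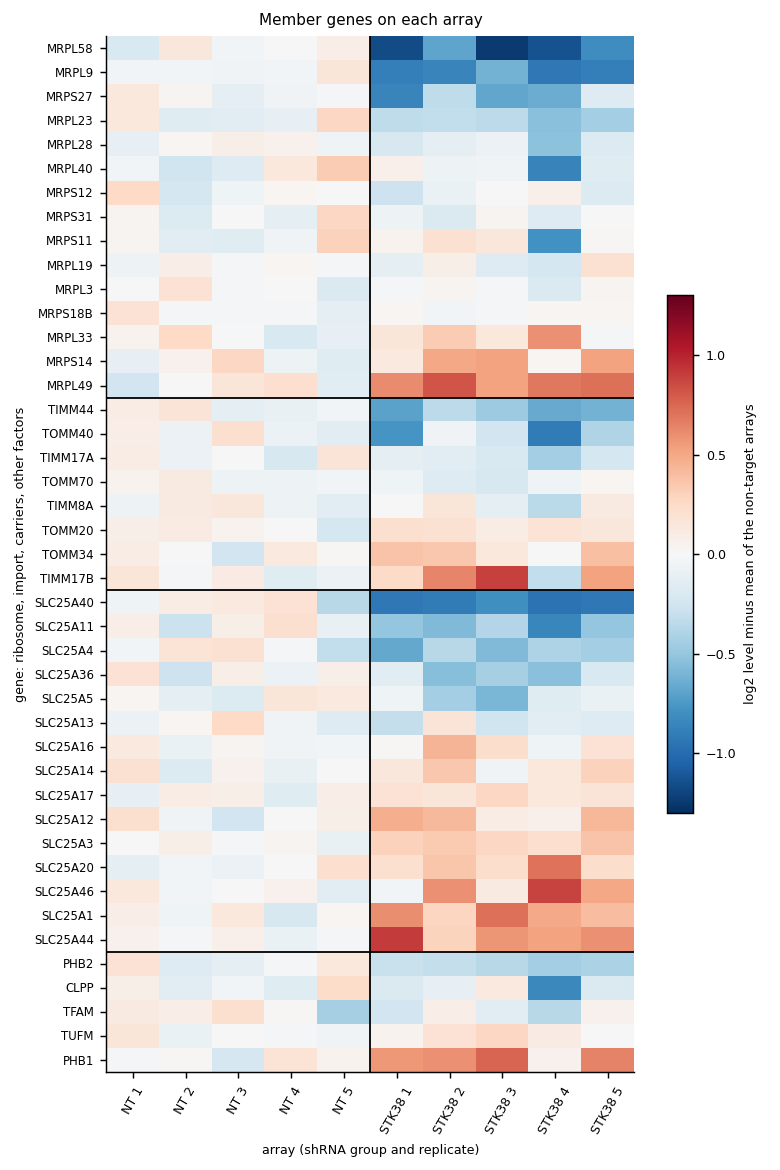
Log2 level of each of the 43 tested member genes (rows, by group) on each array (columns) minus the mean of the 5 non-target arrays, in colour from blue (lower) to red (higher). MRPL58, MRPL9 and SLC25A40 are blue on all 5 STK38 shRNA arrays, and MRPL49 and SLC25A44 red on all 5. MRPL40, MRPS11 and CLPP are deep blue on replicate 4 alone.

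Probe sets annotated to several genes were not members. One was shared by MRPL12, a large-subunit protein that also binds the mitochondrial RNA polymerase, and SLC25A10, the dicarboxylate carrier. It was lower by 0.55 on the log2 scale (SE 0.13, limma adjusted p = 0.00594), without overlap. Another, shared by TOMM7, a small TOM subunit, and C4orf46, was higher by 0.28 (SE 0.060, limma adjusted p = 0.00249), also without overlap. Neither signal can be assigned to a gene.

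Other mitochondrial genes with related work changed in a few members each. The counts for this and the following lists stand beside 15.2% of all genes tested called higher and 15.8% called lower. Without STK38 shRNA replicate 4 these shares were 21.9% and 17.0%. Differences from them were not tested. Each gene of these lists was read at its brightest probe set only, so any other probe sets of it are not shown. Of 10 tested genes of mitochondrial DNA maintenance, transcription and translation, 3 fell and 1 rose, with a median of -0.036. Without STK38 shRNA replicate 4, 3 fell and 2 rose: ERAL1, which helps assemble the small subunit of the mitochondrial ribosome, read 2.20 on that array and 3.13 to 3.53 on the others of its group, and its difference was 0.12 with the array and 0.36 without it (limma adjusted p = 0.758 and 0.0212). SSBP1, which coats single-stranded mitochondrial DNA, fell 2.27-fold (log2 difference -1.18, SE 0.11, limma adjusted p = 2.24e-06), more than any member. The polymerase subunit genes POLG2 and POLG fell by 0.55 and 0.41 (limma adjusted p = 0.00461 and 0.0279), the latter not called without STK38 shRNA replicate 2 or any one of control replicates 1 to 4 (limma adjusted p 0.0503 to 0.0766), nor after quantile normalization. LRPPRC, which protects mitochondrial messenger RNA, rose 1.43-fold (log2 difference 0.52, limma adjusted p = 0.000387). DAP3, a small-subunit protein of the mitochondrial ribosome under another name, rose 1.35-fold (log2 difference 0.43, limma adjusted p = 0.0129), with overlap.

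Of 7 tested aminoacyl-tRNA synthetases of mitochondria, 2 fell and 0 rose, and without STK38 shRNA replicate 4, 2 fell and 2 rose. The falls were GARS1 (-0.57, limma adjusted p = 7.73e-05) and KARS1 (-0.24, limma adjusted p = 0.00164), the products of which also serve the cytosol. LARS2, a synthetase of mitochondria alone, had 0.46 with all arrays and 0.66 without STK38 shRNA replicate 4 (limma adjusted p = 0.0522 and 2.44e-05). IARS2, another synthetase of mitochondria, had 0.22 and 0.25 (limma adjusted p = 0.0716 and 0.0350), and both LARS2 and IARS2 were also called after quantile normalization and with array weights. Of 13 chaperones, peptidases and proteases, 3 fell and 0 rose: PMPCB, a subunit of the peptidase that removes import signals, by 0.60, HTRA2, a protease of the intermembrane space, by 0.48, and HSPD1, the matrix chaperonin, by 0.15 (limma adjusted p = 0.0119, 0.0175 and 0.0160). HTRA2 was not called without control replicate 3 (limma adjusted p = 0.0519), nor HSPD1 after quantile normalization (limma adjusted p = 0.145). CLPX, the partner of the protease CLPP, had 0.28 without overlap of the groups and was not called (limma adjusted p = 0.0758). It was called without STK38 shRNA replicate 4, at 0.30 (limma adjusted p = 0.0351), which made 3 falls and 1 rise, and also after quantile normalization, without a trend and with array weights (limma adjusted p 0.0176 to 0.0409).

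Of 9 tested genes of the outer membrane and of protein insertion, 1 fell and 0 rose, and without STK38 shRNA replicate 4, 1 fell and 2 rose. The fall was VDAC1, the main pore for metabolites in the outer membrane, which went from 9.22 ± 0.11 to 7.71 ± 0.16 (SD, n = 5 each), a 2.85-fold fall (log2 difference -1.51, SE 0.083, limma adjusted p = 1.25e-08). Its relatives VDAC2 and VDAC3 had -0.12 and 0.13 (limma adjusted p = 0.397 and 0.201), and without STK38 shRNA replicate 4 they had -0.078 and 0.20, the latter called (limma adjusted p = 0.567 and 0.0145). BCS1L, an assembly factor of the respiratory chain, had 0.21 with all arrays and 0.31 without that one (limma adjusted p = 0.306 and 0.0363), and was also called after quantile normalization (0.29, limma adjusted p = 0.0456). Among 7 tested regulators of mitochondrial genes, YY1 fell by 0.54 (limma adjusted p = 0.00144) and ESRRA, a nuclear receptor of energy metabolism, rose by 0.39 (limma adjusted p = 0.0150). GABPA, a subunit of the GABP factor that binds many promoters of mitochondrial genes, had -0.25 without overlap but was not called (limma adjusted p = 0.0789). It was called after quantile normalization and without a trend (limma adjusted p = 0.0407 and 0.0417). Without STK38 shRNA replicate 4 it had -0.19 and was not called (limma adjusted p = 0.104). NRF1 was too dim to test.

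**Figure D5:**
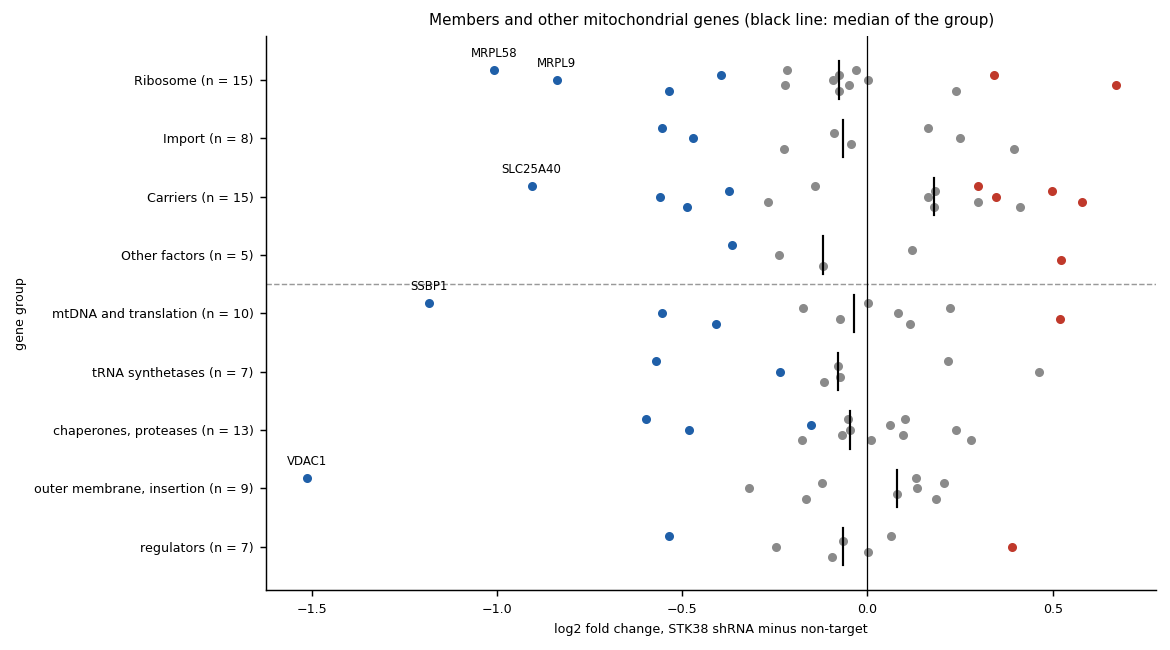
Log2 fold change (x axis, STK38 shRNA minus non-target) of every tested gene in the 4 groups of members (above the dashed line) and in 5 other groups of mitochondrial genes, 1 point a gene, with the group's median as a black line; red genes were called higher, blue lower, grey not called. VDAC1 (-1.51) and SSBP1 (-1.18) lie beyond every member, and the group medians run from -0.12 to 0.18.

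Many members lie head to head with another gene. RefSeq promoters (GRCh38.p14) were found for 43 of the 46 members. In 12 of these genes (27.9%) the start of a protein-coding gene on the other strand lay within 1000 bases upstream, against 15.1% of the 4462 protein-coding genes tested here with a promoter and 12.3% of all 15842. The share was 6 of 14 for the ribosome genes. Several partners belong to the same machinery: MRPS11 faces MRPL46, MRPS12 faces SARS2, the mitochondrial seryl-tRNA synthetase, and MRPS27 faces PTCD2, a mitochondrial RNA-binding protein, but none of these 3 partners was tested.

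Shared promoter stretches allow a called member to be set beside its neighbour, and the bases between both start sites are shown for the 4 called members whose partner was tested. They are given 5′ to 3′ on the member's strand, in lower case, with matches to the motifs described after them in capitals. They lie at chr7:87876361-87876492 (minus strand) for SLC25A40, chr12:6970754-6970912 (minus) for PHB2, chr11:65122135-65122182 (plus) for MRPL49 and chr17:4940047-4940091 (minus) for SLC25A11, all in GRCh38.p14 and all between the genes.
SLC25A40 to DBF4: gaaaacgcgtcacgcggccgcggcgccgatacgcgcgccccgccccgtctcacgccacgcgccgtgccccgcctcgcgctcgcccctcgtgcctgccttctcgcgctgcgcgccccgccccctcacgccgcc
PHB2 to EMG1: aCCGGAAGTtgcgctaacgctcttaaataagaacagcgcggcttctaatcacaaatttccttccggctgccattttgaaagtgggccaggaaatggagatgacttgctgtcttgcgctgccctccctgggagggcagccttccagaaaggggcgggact
MRPL49 to FAU: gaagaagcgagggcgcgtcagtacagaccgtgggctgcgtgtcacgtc
SLC25A11 to RNF167: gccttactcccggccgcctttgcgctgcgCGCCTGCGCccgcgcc

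In the first 2 pairs both genes fell, where 15.8% of all genes tested were called lower. DBF4, the activator of a kinase that fires replication origins, was at 5.23, 5.47, 5.14, 5.30 and 5.17 in the controls and at 4.42, 4.64, 4.25, 4.38 and 4.63 with the STK38 shRNA (log2 difference -0.80, SE 0.12, limma adjusted p = 0.000123), as SLC25A40 was lower on the same arrays. EMG1, an enzyme of cytosolic ribosome assembly, was at 6.30, 5.87, 5.93, 6.20 and 6.23 and at 5.39, 5.74, 5.77, 5.32 and 5.67 (log2 difference -0.53, SE 0.13, limma adjusted p = 0.00516), beside the fall of PHB2 by 0.37. Neither partner's groups overlapped, which held for 23.0% of all genes tested. Whether neighbours changed together more often than other genes was not tested.

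In the other 2 pairs only the member was called. FAU, which encodes a protein of the cytosolic ribosome, had 0.029 (SE 0.069, limma adjusted p = 0.817) beside the rise of 0.67 of MRPL49, though the start sites are 49 bases apart. RNF167, a ubiquitin ligase, had 0.16 (SE 0.19, limma adjusted p = 0.600) beside the fall of SLC25A11 by 0.56, 46 bases away, and 0.32 without STK38 shRNA replicate 4 (limma adjusted p = 0.0810). Of the members not called, MRPL40 faces HIRA (0.52, limma adjusted p = 0.0504; 0.54 and 0.0290 without STK38 shRNA replicate 4), MRPS18B faces PPP1R10 (-0.26, limma adjusted p = 0.189; -0.16 and 0.309 without it), TIMM17B faces PQBP1 (-0.084, limma adjusted p = 0.599) and TUFM faces SH2B1 (0.19, limma adjusted p = 0.159; 0.26 and 0.0137 without that array; above background on 1 array).

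Motifs of 6 to 9 letters were searched on both strands of each promoter window of 300 bases, and overlapping matches were kept. CACGTG, the E-box letters bound by MYC with MAX and by other factors, was in 7 of 43 member genes (16.3%), beside 13.1% of the 4493 genes tested here with a promoter and 8.77% of all 27305. These were MRPL49, SLC25A36, SLC25A13, SLC25A26, SLC25A46, TIMM8A and TOMM20, of which MRPL49 rose, SLC25A36 fell, 4 were not called and SLC25A26 was not tested. CCGGAAGT, letters recognised by ETS factors such as GABP, was in 9 member genes (20.9%), beside 9.04% of genes tested and 4.95% of all. PHB2 was the only one of these 9 that was called, 6 were not called and 2 were not tested. GCGCANGCG, part of the site of the factor NRF1, was in 6 member genes (14.0%), beside 17.2% and 9.02%. Of these 6, SLC25A3 rose, SLC25A11 and TOMM40 fell, and TFAM, TOMM20 and TOMM34 were not called. Of all genes tested 31.0% were called, and of the members tested 41.9%. The calls by motif were not tested against these shares. A match describes the letters of a window and is not a measured site.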

How the data were processed

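Log2 expression values of 12625 probe sets on 10 arrays were deposited, 1 value for each; that they are log2 was judged from their range. GCRMA and affy are named, without version, in the submitters' processing notes. GCRMA uses probe sequence to correct background, then normalizes the arrays, and draws dim probe sets to a floor, which shrinks their differences. That normalization was kept. The number of arrays limits the precision.

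After removal of 67 control probe sets, the 7535 whose 10-array mean reached the 40th percentile of such means (1.93) were kept. These were compared between groups in R 4.3.3 with limma 3.58.1 (lmFit, eBayes with trend; 8 residual degrees of freedom). P-values were adjusted by Benjamini-Hochberg over all of them with a threshold of 0.05. The fit recovered large known changes, beyond those of any member, in data simulated with independent noise and no shift of a whole array. Both group means of every tested member lay above the filter (lowest 2.14). A gene was counted by its brightest tested probe set. Folds are ratios on the linear scale. Background was the 90th percentile of 23 reverse-strand, mouse and yeast control probe sets of each array. A gene above it on no array of 1 group has a bound, computed with each array at its background or its signal, whichever was higher.

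Symbols came from the platform annotation and were updated through Entrez identifiers to RefSeq (GRCh38.p14), for 10934 of 10943 probe sets with 1 gene. Promoters (250 bases before to 50 after a start) are RefSeq's. The members and gene lists were chosen with earlier results of these data known, and the promoter comparisons after seeing these. All members were named. By rule, values by array went to called members (at most 8 of the ribosome, import and carriers each, the largest changes first), the other factors, the ADP/ATP exchangers and genes whose probe sets opposed each other with 1 called (there were none), and up to 4 called genes of each other list were named. The array values of TIMM17B and TOMM34, and ERAL1, LARS2, IARS2, CLPX, BCS1L, VDAC2, VDAC3, GABPA, NRF1, the markers and the partner genes, were added after their values were seen. Alternatives covered scaling, filter, variance model, array weights, probe sets, threshold, a replicate block and each array left out. Plots were drawn with matplotlib 3.10.9.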

Additional observations from a re-analysis of the deposited data

Results flagged for a closer look

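Of 86 sets of 5 arrays (43 member genes in each group), 8 had a highest or lowest array far from the other 4; about 1 in 20 would by chance. On STK38 shRNA replicate 4, MRPL40 read 5.88 (nearest array 6.59), MRPS11 5.42 (6.23), MRPL28 5.70 (6.02), MRPL3 8.06 (8.23) and PHB1 3.17 (3.67), each the lowest of its group. On STK38 shRNA replicate 3, MRPL9 read 8.35 (nearest 8.11) and SLC25A40 2.24 (2.13), the highest of their group. On control replicate 5, MRPL9 read 9.13 (nearest 8.94), the highest. The calls of PHB1, MRPL9 and SLC25A40 held without the array concerned.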

How the results depend on the processing

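All 18 called members kept their direction under the 17 alternatives in which single genes were followed, and 14 kept their call under all of them; MRPS14, SLC25A20, TOMM40 and SLC25A36 did not. Of 25 members not called, 7 were called under at least 1 alternative. The 2 called genes of import became 5 with quantile normalization, 4 with array weights and 1 at an adjusted p threshold of 0.01. At that threshold the other factors held 1 called gene and 4 members were called higher. With array weights 11 members were called higher. Quantile normalization called TUFM as well (0.19, limma adjusted p = 0.0478). The causes were not tested. Leaving out 1 array gave 5 to 6 called ribosome genes, 1 to 4 import genes, 6 to 9 carriers and 2 of the other factors, with 5 to 10 members higher and 9 to 11 lower, and 1938 to 2836 probe sets called over the whole array. The other counts, under the filters, no trend, centring on the median and the mean of a gene's probe sets, stayed within 1.5 times. The scalings moved the median of all probe sets from 0.018 to between 0.0075 and 0.021.

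Replicate numbers are shared by the groups, but the labels tie none to a shared culture or day, so arrays were not paired. Only 1 of 5 same-numbered pairs of arrays had deviations that correlated above 0.1 (range -0.21 to 0.19). That does not settle whether they are pairs. With the replicate block 6 members were higher and 12 lower, and 2159 was the number of probe sets called over the whole array. SLC25A20 was not called under the block (limma adjusted p = 0.0606) and SLC25A5 was (limma adjusted p = 0.0308). Dim members, such as MRPS14, SLC25A16, TIMM8A and PHB1, limit what can be read at low signal.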
